A study of Mus musculus with 5 samples.

Results

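The genes described here encode lysosomal enzymes, lysosomal membrane proteins and subunits of the proton pump that acidifies the lysosome. They were taken by symbol, and all 33 were present among the 13711 genes shared by 5 spatial expression tables of the neonatal mouse heart. By role they comprised 10 cathepsins and related proteases, 6 glycosidases, 9 activators, lipid-handling proteins and other hydrolases, 4 membrane proteins and 4 proton pump subunits. All sections came from wild-type C57BL/6 mice operated on at postnatal day 1, either with myocardial infarction (MI) by ligation of the left anterior descending coronary artery or with a sham operation without ligation. Hearts were taken at day 3 or day 7 after surgery, with 1 sham and 1 MI section at day 3, and 1 sham and 2 MI sections at day 7. Sections were cut 200 µm below the suture, or at the corresponding position in shams, and were profiled on Visium slides, on which each barcoded spot takes up the RNA of a patch of tissue that may contain several cells of different types. The second MI section at day 7 was an independent repeat, and each other group was a single biological sample, so a p-value here rests on the spread between very few sections.

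The lysosome is the acidic compartment in which cells break down proteins, glycans and lipids that arrive by endocytosis, phagocytosis or autophagy. Most of its hydrolases need low pH, which the V-ATPase proton pump maintains, while heavily glycosylated membrane proteins line the compartment. Every cell has lysosomes, and phagocytes are rich in them. In the injured heart macrophages clear dead cells and matrix, and cathepsins released from cells also degrade extracellular matrix.

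The 5 sections held 3364 spots in all, from 376 to 960 per section, with 11396022 to 37492530 raw unique molecular identifiers (UMIs) per section and a median of 20842.5 to 53940 UMIs per spot. The first MI section at day 7 stood apart, with 24.7% of counts from mitochondrial genes against 13.8% to 15.8% in the other sections, and it also had the deepest spots. Spots with under 5000 raw UMIs numbered 19 in the MI section at day 3 and 2 to 7 in the others, and 10 of those 19 had no neighbouring spot. Sections shared spot barcodes, because each capture area carries the same grid of barcodes. Levels are given as CPM, the counts of a gene scaled to a common total over the shared genes in each spot, averaged over the spots of a section. A difference between groups is on the scale of log2(mean CPM + 1), with a standard error (SE) from limma and a p-value adjusted by Benjamini and Hochberg over the 12933 genes that passed the filter on low values. All 33 lysosomal genes passed that filter.

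Summed over all 33 genes, 3407 CPM were found in sham and 6288 CPM in MI tissue at day 3. At day 7 the sum was 3490 CPM in the sham section and 3519 and 4090 CPM in the MI sections. The MI section at day 3 therefore lay 1.85-fold above its sham section, whereas the MI sections at day 7 lay 1.01-fold and 1.17-fold above theirs. The cathepsin group had the largest ratio at day 3 (2.21-fold), followed by glycosidases (1.92-fold), activators and lipid-handling proteins (1.83-fold), membrane proteins (1.49-fold) and the proton pump (1.27-fold). Over the same sections the summed level of 17 macrophage markers, none of which was at 0 in any section, was 210 CPM in sham and 1399 CPM in MI tissue at day 3, a 6.65-fold ratio. At day 7 these markers summed to 206 CPM in the sham section and to 302 and 421 CPM in the MI sections. Of the 17 markers, 13 were higher in all 3 MI sections than in both sham sections, against 6.84% of all genes. The part of macrophage content in the lysosomal differences was not tested, and in spots of mixed cells more cells of a type cannot be told apart from more RNA per cell. One of the markers, Cd68, is itself a lysosomal membrane protein. Summed fibroblast markers ranged from 3810 to 4291 CPM in sham and from 5120 to 6847 CPM in MI sections. Cardiomyocyte markers summed to 43309 CPM in the MI section at day 3 and to 50697 to 53257 CPM in the others. Blood markers summed to 4411 CPM in sham and 11385 CPM in MI at day 3, and to 6901 CPM in sham and 8567 and 10746 CPM in MI at day 7, with 5 of 5 higher in all MI sections. Of 5 neutrophil markers 3 were in the tables, at 83.6 CPM in MI at day 3 and 8.65 to 34.3 CPM in the other sections, and 4 of 6 endothelial markers were lower in all MI sections, against 9.60% of all genes. The part of these cells was not tested.

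**Figure D1:**
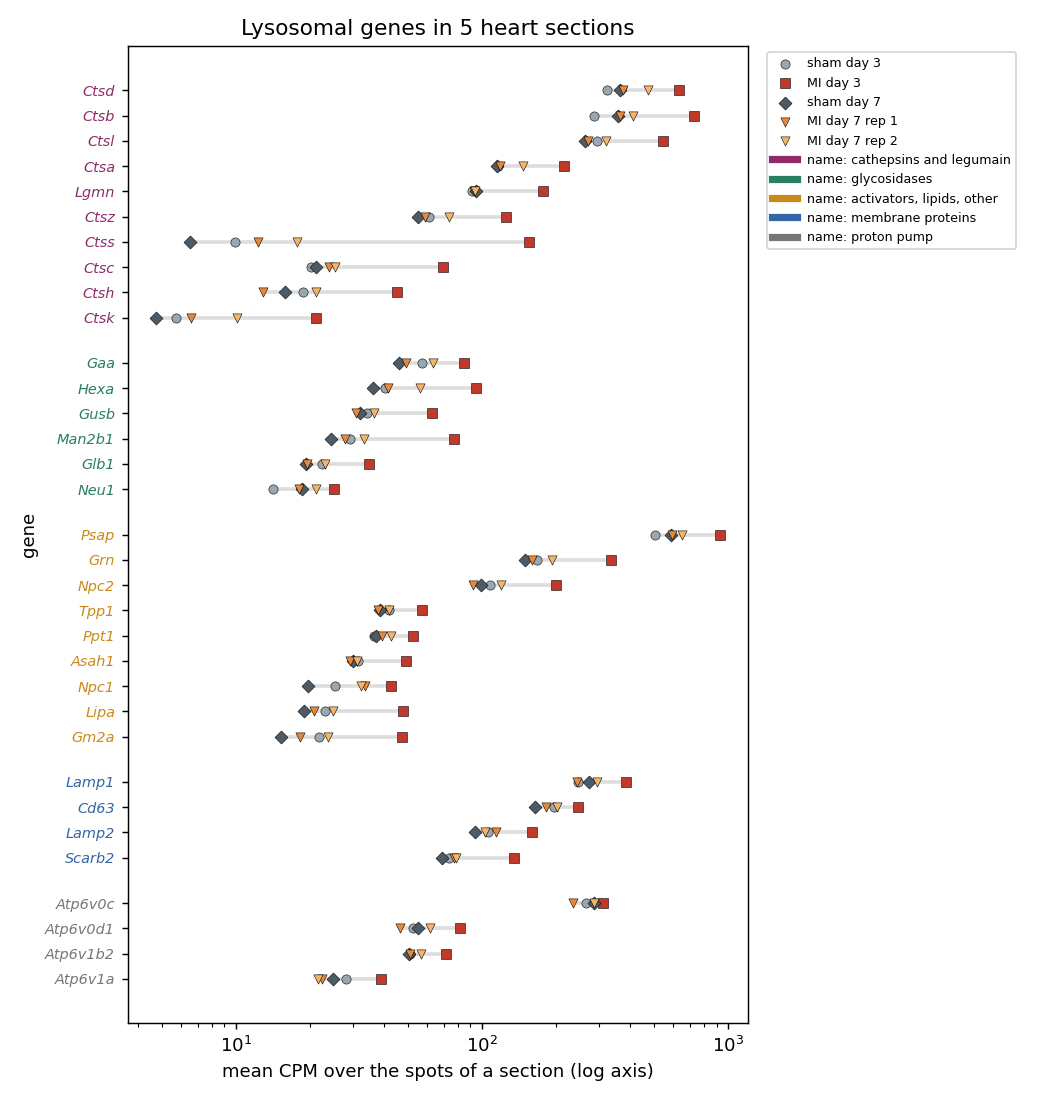
Mean CPM over the spots of a section (horizontal log axis) for the 33 lysosomal genes, grouped by role through the colour of the gene name, with 1 point for each of the 5 sections and a grey line from the lowest to the highest section. The MI section at day 3 (red square) is the highest of the 5 for every gene, and Ctss has the widest range, from 6.50 to 155 CPM.

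At day 3 each group had 1 section, and the differences are given as a description. The level was higher in the MI section for 33 of 33 genes, a direction shared by 54.7% of all genes. The median difference over the lysosomal genes was 0.87 on the log2 scale, beside 0.03 over all genes tested. A difference above 1 was found for 10 of the 33 genes, against 3.51% of all genes. These 10 were Ctsb, Ctsc, Ctsh, Ctsk, Ctss and Ctsz among the cathepsins, the glycosidases Hexa and Man2b1, and Lipa and Gm2a, which act on lipids. No membrane protein and no proton pump subunit passed a difference of 1. The sham section at day 3 was deposited as raw counts and the MI section as corrected counts. With SCTransform applied to the sham section, 33 of 33 genes were again higher in MI and the median was 0.89. At day 7 the median difference was 0.17 and 27 of 33 genes were above 0, beside a median of -0.04 over all genes. Without the second MI section the median was 0.04 with 22 genes above 0, and without the first it was 0.26 with 30. None of the 33 passed an adjusted p of 0.05 at day 7 in limma, where 0.186% of all genes were called higher, and 3 had an unadjusted p under 0.05 and were higher in MI, as were 2.43% of all genes. Across both days none of the 33 was called either, at a background of 0.00773% called higher, which was 1 gene. All 33 differences across days were above 0 with a median of 0.42, beside -0.01 over all genes, and 17 were higher in MI with an unadjusted p under 0.05, as were 5.35% of all genes. That number was 3 without either day 3 section, 26 without the sham section at day 7, and 29 and 12 without the first and the second MI section at day 7. For 12 of the 33 genes all 3 MI sections lay above both sham sections, which held for 6.84% of all genes, and for none did all MI sections lie below, which held for 9.60% of all genes. The 12 were 6 cathepsins (Ctsa, Ctsb, Ctsc, Ctsd, Ctsk, Ctss), Hexa, Psap, Npc1, Ppt1, Scarb2 and Atp6v1b2.

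**Figure D2:**
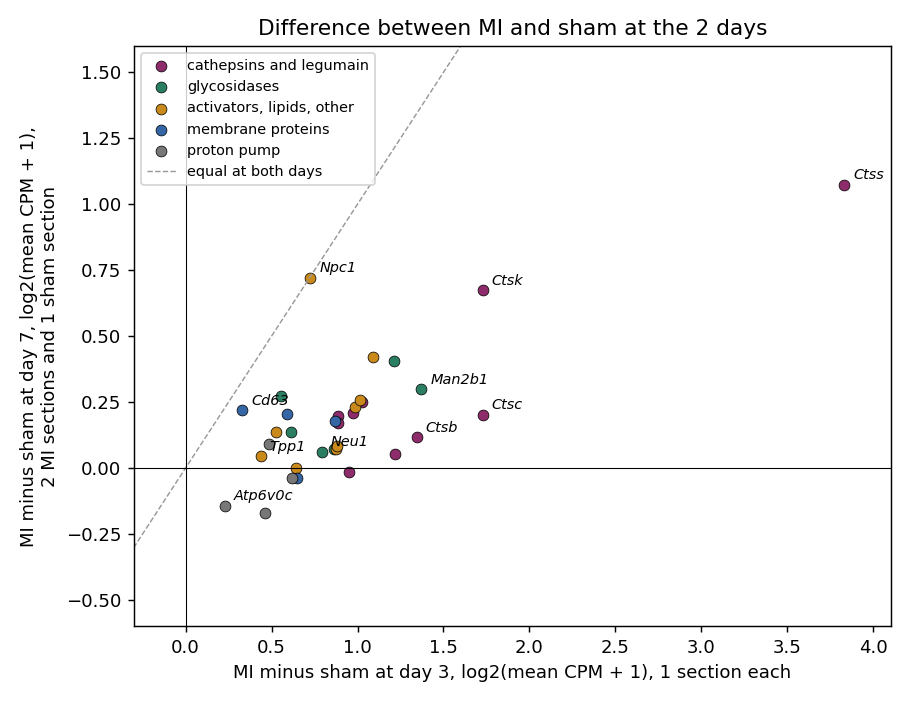
Difference between MI and sham in log2(mean CPM + 1) at day 3 (horizontal axis, 1 section each) and at day 7 (vertical axis, 2 MI sections and 1 sham section), 1 point per lysosomal gene coloured by role, with a dashed line where both are equal. All points lie to the right of 0, Ctss is at 3.83 and 1.07, Npc1 lies at 0.73 and 0.72, and 3 of the 4 proton pump genes lie below 0 at day 7, of which Atp6v0d1 turned to 0.04 with mitochondrial and haemoglobin genes left out.

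Promoter sequence is shown for the 3 genes with the largest and the 3 with the smallest difference across days, because the set was searched for 2 regulatory motifs. RefSeq promoter windows on GRCm38.p6, of 250 bases before and 50 after the transcription start, were found for 28 of the 33 genes. The searched letters were CACGTG, the E-box core, and TCACGTG, the extended E-box bound by the TFEB family of lysosomal regulators, of which every match is also a CACGTG match, as well as GAGGAA, the core bound by PU.1 of the myeloid lineage, each on both strands. TCACGTG was found for 8 of the 28 genes (28.6%), against 6.96% of the genes tested that have a window. CACGTG was found for 9 of 28 (32.1%, against 11.7%), and GAGGAA for 12 of 28 (42.9%, against 30.2%). The genes with TCACGTG were Ctsa, Ctsd, Lgmn, Gaa, Glb1, Lamp1, Atp6v0d1 and Atp6v1a. In the lines that follow only the 250 bases before the start are printed, 5′ to 3′ on the strand of the gene, in lower case with matches to either motif in capitals.
Ctss, chr3:95526536-95526785, plus strand: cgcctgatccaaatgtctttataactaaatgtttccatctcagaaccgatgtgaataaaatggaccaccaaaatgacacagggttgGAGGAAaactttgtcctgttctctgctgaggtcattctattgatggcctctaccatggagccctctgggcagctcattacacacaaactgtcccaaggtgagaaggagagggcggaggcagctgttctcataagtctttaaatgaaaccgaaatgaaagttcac
Ctsk, chr3:95498960-95499209, plus strand: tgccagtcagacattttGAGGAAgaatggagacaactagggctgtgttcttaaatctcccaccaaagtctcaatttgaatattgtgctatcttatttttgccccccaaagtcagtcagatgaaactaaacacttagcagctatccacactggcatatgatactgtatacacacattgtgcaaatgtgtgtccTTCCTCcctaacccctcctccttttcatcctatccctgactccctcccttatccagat
Ctsc, chr7:88277835-88278084, plus strand: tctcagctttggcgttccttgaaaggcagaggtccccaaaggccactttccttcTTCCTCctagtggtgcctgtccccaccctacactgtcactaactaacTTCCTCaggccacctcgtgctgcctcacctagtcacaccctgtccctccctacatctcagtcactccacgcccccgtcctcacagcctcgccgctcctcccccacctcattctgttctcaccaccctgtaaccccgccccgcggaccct
Tpp1, chr7:105752236-105752485, minus strand: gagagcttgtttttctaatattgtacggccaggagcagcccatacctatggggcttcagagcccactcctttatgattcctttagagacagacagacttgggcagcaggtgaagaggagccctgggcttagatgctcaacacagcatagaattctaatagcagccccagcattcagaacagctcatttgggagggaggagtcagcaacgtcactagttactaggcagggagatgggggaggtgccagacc
Atp6v1a, chr16:44139260-44139509, minus strand: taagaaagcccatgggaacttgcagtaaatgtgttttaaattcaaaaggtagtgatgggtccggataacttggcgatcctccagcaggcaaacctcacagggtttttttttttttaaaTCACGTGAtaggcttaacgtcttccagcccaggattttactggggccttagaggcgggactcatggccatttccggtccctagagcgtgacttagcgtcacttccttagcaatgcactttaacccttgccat
Atp6v0c, chr17:24169679-24169928, minus strand: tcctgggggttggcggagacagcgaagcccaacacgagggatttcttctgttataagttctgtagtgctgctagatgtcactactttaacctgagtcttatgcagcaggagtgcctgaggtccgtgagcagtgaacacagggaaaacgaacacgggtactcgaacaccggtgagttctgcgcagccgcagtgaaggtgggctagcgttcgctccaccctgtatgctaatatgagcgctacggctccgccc
Ctss, Ctsk and Ctsc each held GAGGAA or its reverse complement and no CACGTG. Atp6v1a held TCACGTG and no GAGGAA, and neither Tpp1 nor Atp6v0c held any of them. Atp6v0c has 3 annotated windows, all without a match, and its first is shown. A match to these letters is a description of the sequence and says nothing of binding in these hearts.

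The cathepsins are the main lysosomal proteases, most of them cysteine proteases. Cathepsin S (Ctss) processes the invariant chain in antigen-presenting cells and stays active at neutral pH. Ctss (ENSMUSG00000038642.10, GENCODE annotation of GRCm38, chr3:95526786-95556403) measured 9.97 CPM in sham and 155 CPM in MI at day 3. By day 7 it measured 6.50 CPM in sham and 12.3 and 17.8 CPM in the MI sections. Every MI section was above both sham sections, with the MI section at day 3 far above the rest. The sham level at day 3 rested on 106 UMIs, for which an exact Poisson 95% interval of 7.62 to 11.2 CPM of the section total covers counting error only. The difference was 3.83 at day 3, 1.07 ± 0.24 (SE) at day 7 with an adjusted p of 0.0858, and 2.26 ± 0.55 (SE) across days with an adjusted p of 0.412 in limma.

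The effect of MI on Ctss was called different between days in the main fit, in which every group but MI at day 7 was a single section. In limma the difference at day 3 exceeded that at day 7 by 2.76 ± 0.36 (SE) with an adjusted p of 0.00167, and Ctss was the only one of the 33 genes called, at a background of 0.363% called higher. All 33 genes had a larger difference at day 3 than at day 7, by a median of 0.71, beside 0.09 over all genes tested. Cathepsin C (Ctsc), which activates serine proteases of immune cells, came next with 1.53 ± 0.33 (SE) and an adjusted p of 0.0513. The spread in this test came only from the pair of MI sections at day 7, with 1 residual degree of freedom, moderated by limma over all genes. The call on Ctss was lost under median-of-ratios scaling (adjusted p = 0.201) and with mitochondrial and haemoglobin genes left out (adjusted p = 0.279), with sizes of 2.65 and 2.58. In spots with a Macrophage score of 0 its size was 1.61, and it was called there. These spots were chosen after seeing the data and still held macrophage markers at a 3.80-fold ratio of MI to sham at day 3. In that fit limma used a variance trend shared by all genes and gave no weight to the spread of Ctss itself. As a sum, macrophage markers moved in the same way. One of them, the macrophage lysozyme Lyz2, differed between days by 2.88 ± 0.44 (SE) with an adjusted p of 0.00488 in limma. That call was lost under the same 2 settings as for Ctss, in which no gene at all was called. Single markers were not alike, and Cx3cr1 changed far less between days than Lyz2. The part of macrophage content was not tested.

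Cathepsin K (Ctsk), a collagen-degrading protease best known from osteoclasts, was at 5.73 CPM in sham and 21.3 CPM in MI at day 3. Its day 7 levels were 4.74 CPM in sham and 6.56 and 10.1 CPM in MI. The MI sections were higher at both days, and the difference across days of 1.13 ± 0.28 (SE) had an adjusted p of 0.412. Ctsc (chr7:88278085-88310888) was at 20.2 CPM in sham and 69.3 CPM in MI at day 3, and at 21.2, 23.9 and 25.3 CPM in the sham and both MI sections at day 7. The sham sections of Ctsc were close to each other, and the day 7 MI sections lay just above them. Cathepsin B (Ctsb), an abundant cysteine protease, rested at 286 and 357 CPM in sham tissue at days 3 and 7. In MI it was at 728 CPM at day 3 and 363 and 412 CPM at day 7, so that the first MI section at day 7 was only slightly above sham. Cathepsin D (Ctsd), the main aspartic protease of the lysosome, was at 323 and 366 CPM in sham and at 635, 376 and 476 CPM in MI. Cathepsin A (Ctsa), which protects the sialidase Neu1 and beta-galactosidase in a complex, was at 116 CPM in both sham sections and at 215, 119 and 147 CPM in MI. For Ctsb, Ctsd and Ctsa the groups did not overlap, but most of the distance came from day 3. The other 4 members, Ctsh, Ctsl, Ctsz and legumain (Lgmn), overlapped between groups, with differences across days of 0.40 to 0.58 and at day 3 of 0.88 to 1.22. Lgmn, an asparaginyl endopeptidase that activates cathepsins, was practically level at day 7, with 94.5 CPM in sham and 93.3 and 93.8 CPM in MI.

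The glycosidases remove sugars from glycolipids and glycoproteins, and several are the deficient enzymes of lysosomal storage diseases. Hexa, a lysosomal hexosaminidase, was at 40.3 and 36.2 CPM in sham and at 95.0, 41.4 and 56.3 CPM in MI, in the order of day 3 and both day 7 sections. It was the 1 glycosidase whose groups did not overlap, with a difference across days of 0.75 ± 0.22 (SE) and an adjusted p of 0.460. The other 5 overlapped. Among them Man2b1, the lysosomal alpha-mannosidase, had the largest difference at day 3 (1.37) and was at 24.5 CPM in sham and 27.8 and 33.1 CPM in MI at day 7. Gaa, the acid alpha-glucosidase that breaks down glycogen, had the smallest at day 3 (0.56). The median difference of the glycosidases was 0.83 at day 3, below the 1.12 of the cathepsins and above the 0.47 of the proton pump. At day 7 it was 0.20, beside 0.20 for the cathepsins and -0.09 for the proton pump. The differences between these roles were not tested.

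Among the activators and lipid-handling proteins, Npc1 had differences of nearly the same size at both days, and its adjusted p did not pass the threshold. NPC1 is the membrane protein that exports cholesterol from the lysosome. Its level was 25.4 CPM in sham and 42.6 CPM in MI at day 3. By day 7 it was 19.6 CPM in sham and 33.7 and 32.4 CPM in MI, so both MI replicates lay well above their sham section and close to each other. The difference was 0.73 at day 3 and 0.72 ± 0.22 (SE) at day 7 (adjusted p = 0.388). Across days it was 0.72 ± 0.11 (SE) with an adjusted p of 0.323, the smallest among the 33 genes. Npc2, the soluble partner that hands cholesterol to NPC1, overlapped between groups, with 91.8 CPM as the lowest MI value and 108 CPM as the highest sham value. Psap, the precursor of the saposins that present lipids to hydrolases, was at 507 and 590 CPM in sham and at 930, 593 and 649 CPM in MI, the first MI section at day 7 being nearly level with sham. Ppt1, which removes palmitate from proteins, was at 36.4 and 37.3 CPM in sham and at 52.8, 39.3 and 42.9 CPM in MI. Tpp1, a peptidase that trims tripeptides, was at 42.1 and 38.6 CPM in sham and at 57.3, 37.7 and 42.1 CPM in MI. Its groups overlapped, and its difference across days of 0.21 ± 0.14 (SE) was the third smallest of the set. Grn, Lipa, Asah1 and Gm2a overlapped between groups, with differences of 0.64 to 1.09 at day 3 and of up to 0.42 at day 7.

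Of the membrane proteins, Scarb2, the receptor that carries glucocerebrosidase to the lysosome, was at 73.5 and 68.6 CPM in sham and at 135, 77.0 and 78.5 CPM in MI, with no overlap. Lamp1, Lamp2 and Cd63, the major proteins of the lysosomal membrane, overlapped, with differences across days of 0.26 to 0.37. Across days the proton pump had the smallest median difference of the 5 roles, at 0.17. Single genes overlapped between roles, with the pump gene Atp6v1b2 at 0.26 and Tpp1 at 0.21. Atp6v0c, which forms the proton-carrying ring in the membrane, was at 265 and 285 CPM in sham and at 311, 235 and 285 CPM in MI. The lowest of the 5 values was an MI section, and the difference across days was 0.02 ± 0.15 (SE) with an adjusted p of 0.987. Atp6v1a, the catalytic subunit of the ATP-hydrolysing domain, was at 28.1 and 24.9 CPM in sham and at 39.1, 22.3 and 21.7 CPM in MI, higher in MI at day 3 and lower in both MI sections at day 7. Atp6v1b2, the other subunit of the catalytic ring, was at 51.1 and 50.5 CPM in sham and at 71.8, 51.3 and 56.5 CPM in MI, without overlap but nearly level in the first MI section at day 7. Atp6v0d1 overlapped, with a difference of 0.62 at day 3 and -0.04 at day 7, which turned to 0.04 with mitochondrial and haemoglobin genes left out.

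Further lysosomal genes outside the set were counted in the same way. No gene of these lists passed an adjusted p of 0.05 in any of the fits. Of all genes, 54.7% were higher in MI at day 3, and at day 7 the median difference over all genes was -0.04. The share of all genes higher at day 7 was not counted. Of 24 other lysosomal enzymes, 24 were higher in MI at day 3 (median difference 0.64) and 18 at day 7 (median 0.09), and 4 had all MI above all sham sections, against 6.84% of all genes. Of 12 other proton pump subunits and accessory proteins, 8 were higher at day 3 (median 0.19) and 2 at day 7 (median -0.10), while none had all MI above all sham sections and 1 had all below, against 9.60% of all genes. Of 12 other membrane proteins, 12 were higher at day 3 and 5 at day 7. Of 6 sorting and delivery receptors 6 were higher at day 3 and 1 at day 7, of 11 autophagy genes 9 and 4, and of the 3 transcription factors Tfeb, Tfe3 and Mitf 1 and 1. With mitochondrial and haemoglobin genes left out the counts at day 7 were 5 of 12 for the pump, 9 of 12 for the membrane proteins and 8 of 11 for autophagy. The median difference over all genes was then 0.03. Both cathepsin inhibitors, Cst3 and Cstb, had all MI above all sham sections, at the same background of 6.84%. Cstb, the intracellular inhibitor cystatin B, had the largest difference across days in these lists (0.73 ± 0.13, SE, adjusted p = 0.375), with 57.1 and 51.7 CPM in sham and 106, 87.0 and 72.5 CPM in MI. Cathepsin F (Ctsf) was at 19.1 and 18.7 CPM in sham and at 30.5, 28.0 and 30.7 CPM in MI, which put all 3 MI sections at nearly 1 level. Dnase2a, the lysosomal DNase, had a difference across days of 0.66 (adjusted p = 0.435 in limma).

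Each spot carried 11 label-transfer scores for cell types, made by the authors from a single-nucleus reference. Comparisons by score are descriptions without a test, since the scores were made from the same expression values. The Macrophage score was the highest of the 11 in 26 and 20 spots of the sham and MI sections at day 3, and in 70, 21 and 13 spots of the sham and the first and second MI section at day 7. These Macrophage-dominant spots were not alike between sections. Their summed macrophage markers were 650, 620 and 866 CPM in both sham sections and the first MI section at day 7, where cardiomyocyte markers stayed close to their level in CM1-dominant spots, against 12388 CPM in MI tissue at day 3 and 4825 CPM in the second MI section of day 7. In 3 of the 5 sections the spots with this label thus held few macrophage transcripts. In CM1-dominant spots of these sections the markers summed to 131, 138 and 230 CPM, and all 17 were lower there than in Macrophage-dominant spots. What the label rested on was not tested.

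Compared with spots dominated by CM1, the main cardiomyocyte score, 24 of the 33 genes were higher in Macrophage-dominant spots in all 5 sections, against 12.4% of all genes. This held for 10 of 10 cathepsins, 3 of 6 glycosidases, 6 of 9 activators and lipid-handling genes, 3 of 4 membrane proteins and 2 of 4 proton pump genes. The median difference was 0.39 and 0.16 in sham tissue at days 3 and 7. In MI it was 2.16 at day 3, and 0.38 and 1.70 in the first and second section at day 7. Fibroblast markers were also high in the Macrophage-dominant spots of the sections with 2.16 and 1.70, at 14661 and 23684 CPM against 3274 and 3945 CPM in CM1-dominant spots and 10438 and 17459 CPM in FB-dominant spots, and their part was not tested. In the same Macrophage-dominant spots neutrophil markers summed to 100 and 321 CPM, against 55.7 and 22.6 CPM in CM1-dominant spots, and their part was not tested. The median over sections and genes was 0.57, and it was 0.40 without either of the MI sections with high values and 1.00 to 1.06 without each of the others. Ctss was at 22.3, 1470, 20.6, 33.8 and 231 CPM in Macrophage-dominant spots of the sham and MI sections at day 3, the sham and the first and second MI section at day 7. In CM1-dominant spots of the same sections it was at 6.44, 46.5, 4.65, 10.0 and 7.36 CPM. Ctsb likewise reached 3249 CPM in the Macrophage-dominant spots of MI tissue at day 3 against 444 CPM in its CM1-dominant spots. In those MI day 3 spots Npc1 was at 63.8 CPM against 42.1 CPM, a much smaller step.

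FB-dominant spots, in which the fibroblast score was highest, had 30 of the 33 genes above CM1-dominant spots in all 5 sections, at a background of 31.4%. The exceptions were Npc1, Neu1 and Atp6v1b2. The median difference over sections and genes was 0.55, beside 0.57 in Macrophage-dominant spots. By section it was 0.33 and 0.31 in sham and 1.01, 0.59 and 0.81 in MI. Ctsk was at 8.96, 40.3, 6.24, 12.7 and 19.1 CPM in FB-dominant spots and at 3.41, 13.3, 3.85, 4.39 and 6.09 CPM in CM1-dominant spots of the same sections, which is higher in each. Macrophage markers were also higher in FB-dominant than in CM1-dominant spots, summing to 250 to 2563 CPM against 131 to 464 CPM, and their part was not tested. Neutrophil markers summed to 465 CPM in FB-dominant and 55.7 CPM in CM1-dominant spots of MI tissue at day 3. In the sham section at day 7 they were lower in FB-dominant spots, at 6.27 against 9.84 CPM. Their part was not tested either. Endocardial (EndoEC) and endothelial (EC) spots had 17 (background 17.0%) and 11 (background 14.0%) of the 33 genes above CM1 in all sections. Epicardial (EPI) spots, of which only the 3 MI sections held enough, at 6 to 15 spots, had 23 of the 33 genes above CM1 in all 3 (background 17.7%), with a median difference of 0.68. Their macrophage markers summed to 904 to 3745 CPM and their fibroblast markers to 9955 to 29935 CPM, the latter against 3274 to 3945 CPM in CM1-dominant spots of these sections. In spots dominated by CM4, another cardiomyocyte score, the median was 0.79 in the MI section at day 3 and -0.06 to 0.31 in the other sections. Those CM4-dominant spots of MI tissue at day 3 held macrophage markers at 1584 CPM and fibroblast markers at 7482 CPM, against 464 and 3274 CPM in CM1-dominant spots, and the part of these cells was not tested.

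**Figure D3:**
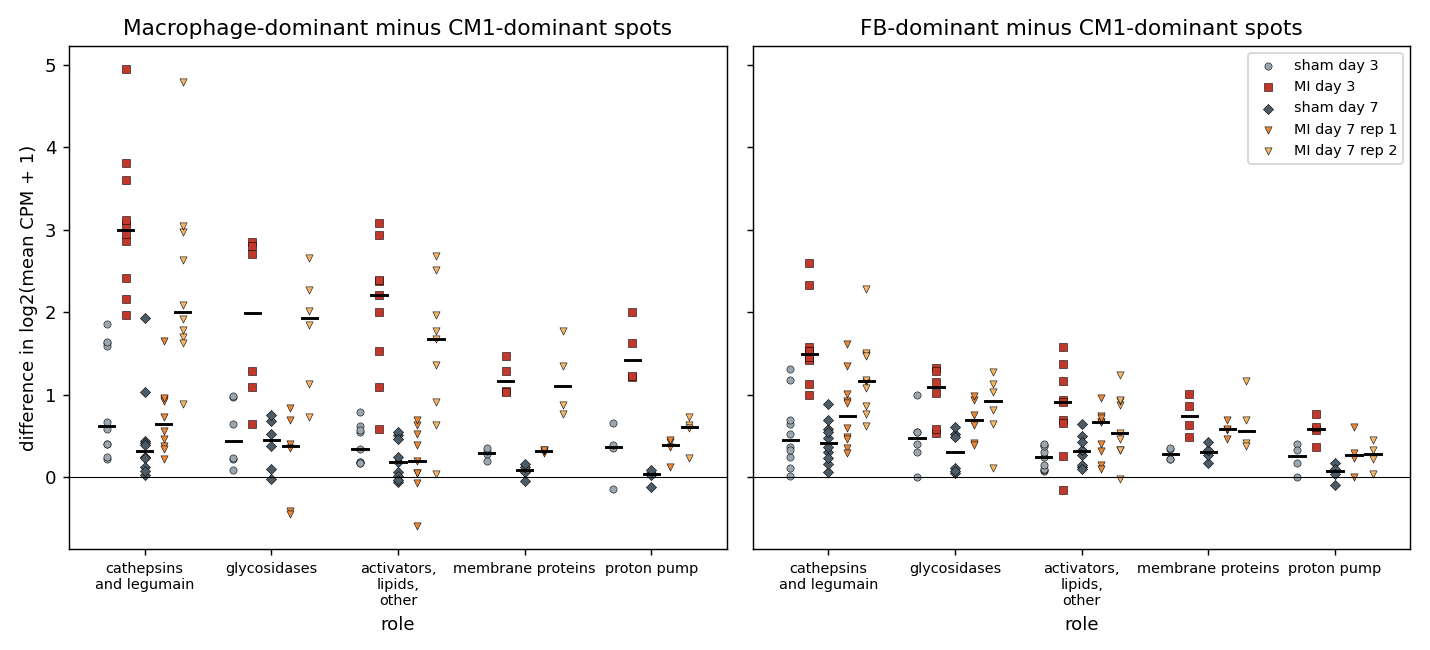
Difference in log2(mean CPM + 1) between Macrophage-dominant (left) or FB-dominant (right) spots and CM1-dominant spots of the same section (vertical axis), by role (horizontal axis), 1 point per gene and section, with black bars for the median of a role in a section. In Macrophage-dominant spots the MI section at day 3 and the second MI section at day 7 stand above the others, with median differences over all 33 genes of 2.16 and 1.70 against 0.16 to 0.39 in the rest.

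Restricted to CM1-dominant spots, the fit across days called 1 of the 33 genes in limma, Ctss, at a background of 0.188% called higher. Its difference was 1.58 ± 0.31 (SE) with an adjusted p of 0.0481. The call was lost under median-of-ratios scaling (adjusted p = 0.184), with mitochondrial and haemoglobin genes left out (adjusted p = 0.193), with a pseudocount of 5 (adjusted p = 0.0579), and without the first MI section at day 7 (adjusted p = 0.235). It was also lost without the sham section (adjusted p = 0.353) or the MI section (adjusted p = 0.430) at day 3. Its size was 1.22 to 2.09 under the other settings and 0.77 to 2.67 with a section left out, lowest without a day 3 section and highest without the sham section at day 7. Npc1 had a difference of 0.79 ± 0.16 (SE) with an adjusted p of 0.0562. The median over the 33 genes was 0.22, beside 0.42 over all spots, and 31 of 33 were above 0. Even these spots held macrophage markers, at 131 and 138 CPM in sham and at 464, 230 and 174 CPM in MI, and their part was not tested. Among spots of any kind with a Macrophage score of 0, chosen after seeing the data, the level was higher in MI at day 3 for 33 of 33 genes, against 49.7% of all genes, with a median difference of 0.56 and Ctss at 2.68. These spots also held macrophage markers, which summed to 142 CPM in sham and 541 CPM in MI at day 3, a 3.80-fold ratio, so a score of 0 did not mark spots free of them.

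Across the spots of a section, the rank correlation of a gene with the Macrophage score was described by Spearman's coefficient. Spots of a section share a library and neighbours, and the scores come from the same counts, so no p-value is given. The score was 0 in 59.0% and 40.6% of spots in sham at days 3 and 7, so its ranks held many ties. In MI it was 0 in 84.3% of spots at day 3 and in 55.6% and 78.4% at day 7. Its mean was 5.55% and 6.91% in sham and 5.06%, 3.97% and 1.57% in MI, while summed macrophage markers were higher in MI. The median coefficient over the 33 genes was 0.05 and 0.03 in sham tissue at days 3 and 7, beside -0.01 and 0.003 over all genes tested. In MI it was 0.43 at day 3, and 0.14 and 0.19 in the sections of day 7, beside 0.009 to 0.03 over all genes. The coefficient was in all 5 sections above 0 for 21 of the 33 genes, against 11.2% of all genes. With Pearson's coefficient this held for 13 of the 33 genes (background 6.94%) and for 1 of 4 membrane proteins. By rank it was found for 9 of 10 cathepsins, all but Ctsa, for 3 of 6 glycosidases, 5 of 9 activators and lipid-handling genes, 4 of 4 membrane proteins and 0 of 4 proton pump genes. The median coefficient over sections was 0.19 for the cathepsins and also for the membrane proteins, against 0.09 for both the glycosidases and the proton pump. The cathepsin median lay above both of these in each of the 5 sections. The highest were Lgmn (0.29), Ctsz (0.28), Psap and Ctsl (both 0.26) and Ctsb (0.25). Ctss, which has the largest difference between MI and sham, had a median of 0.16 and reached 0.57 in the MI section at day 3. Npc1 was at 0.03, with -0.01 to 0.05 in the 5 sections, and Atp6v1a at 0.02. The coefficient with the FB score was of the same size, with a median of 0.16 over the 33 genes and values above 0 in all sections for 27 of them (background 27.9%). The coefficient with raw spot depth had a median of -0.05.

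**Figure D4:**
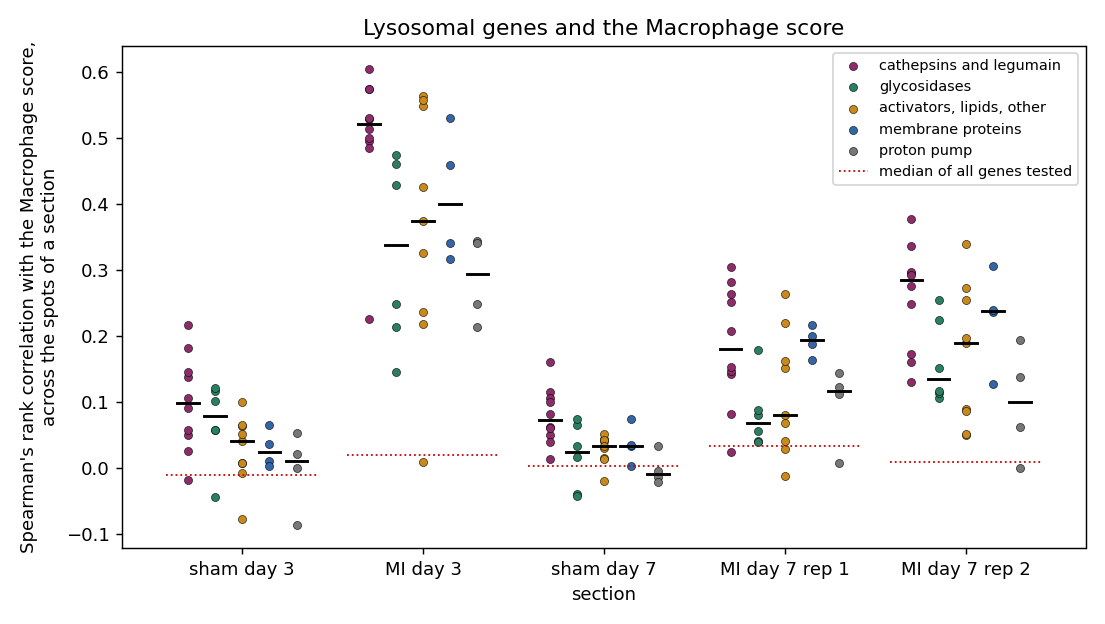
Spearman's rank correlation between the CPM of a gene and the Macrophage score across the spots of a section (vertical axis), by section (horizontal axis), 1 point per lysosomal gene coloured by role, with black bars for role medians and a dotted line for the median of all genes tested. Cathepsins in the MI section at day 3 have a median of 0.52, and in both sham sections the medians of all roles lie at or below 0.10.

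The genes also varied together within a section to different degrees. Over all 528 pairs of the 33 genes the median rank correlation across spots was 0.04 and 0.03 in sham tissue at days 3 and 7, 0.25 in the MI section at day 3 and 0.08 and 0.09 in the MI sections at day 7. In the MI section at day 3 the 45 cathepsin pairs had a median of 0.48, the 15 glycosidase pairs 0.19 and the 6 proton pump pairs 0.15. Spatial clustering was described by Moran's I between neighbouring spots, which is near 0 for a scattered pattern and near 1 for smooth patches. For the summed cathepsins it was 0.19 and 0.16 in sham tissue at days 3 and 7, 0.67 in MI at day 3, and 0.43 and 0.61 in MI at day 7. For the summed glycosidases it was 0.07 and 0.10 in sham, 0.63 in MI at day 3, and 0.24 and 0.35 in MI at day 7. For the summed proton pump it was 0.05 and 0.004 in sham, 0.42 in MI at day 3, and 0.10 and 0.07 in MI at day 7. Macrophage markers gave 0.15 and 0.07 in sham and 0.64, 0.13 and 0.54 in MI. Across spots the summed 33 genes had a rank correlation with the summed macrophage markers of 0.33 and 0.27 in sham and of 0.81, 0.42 and 0.45 in MI.

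**Figure D5:**
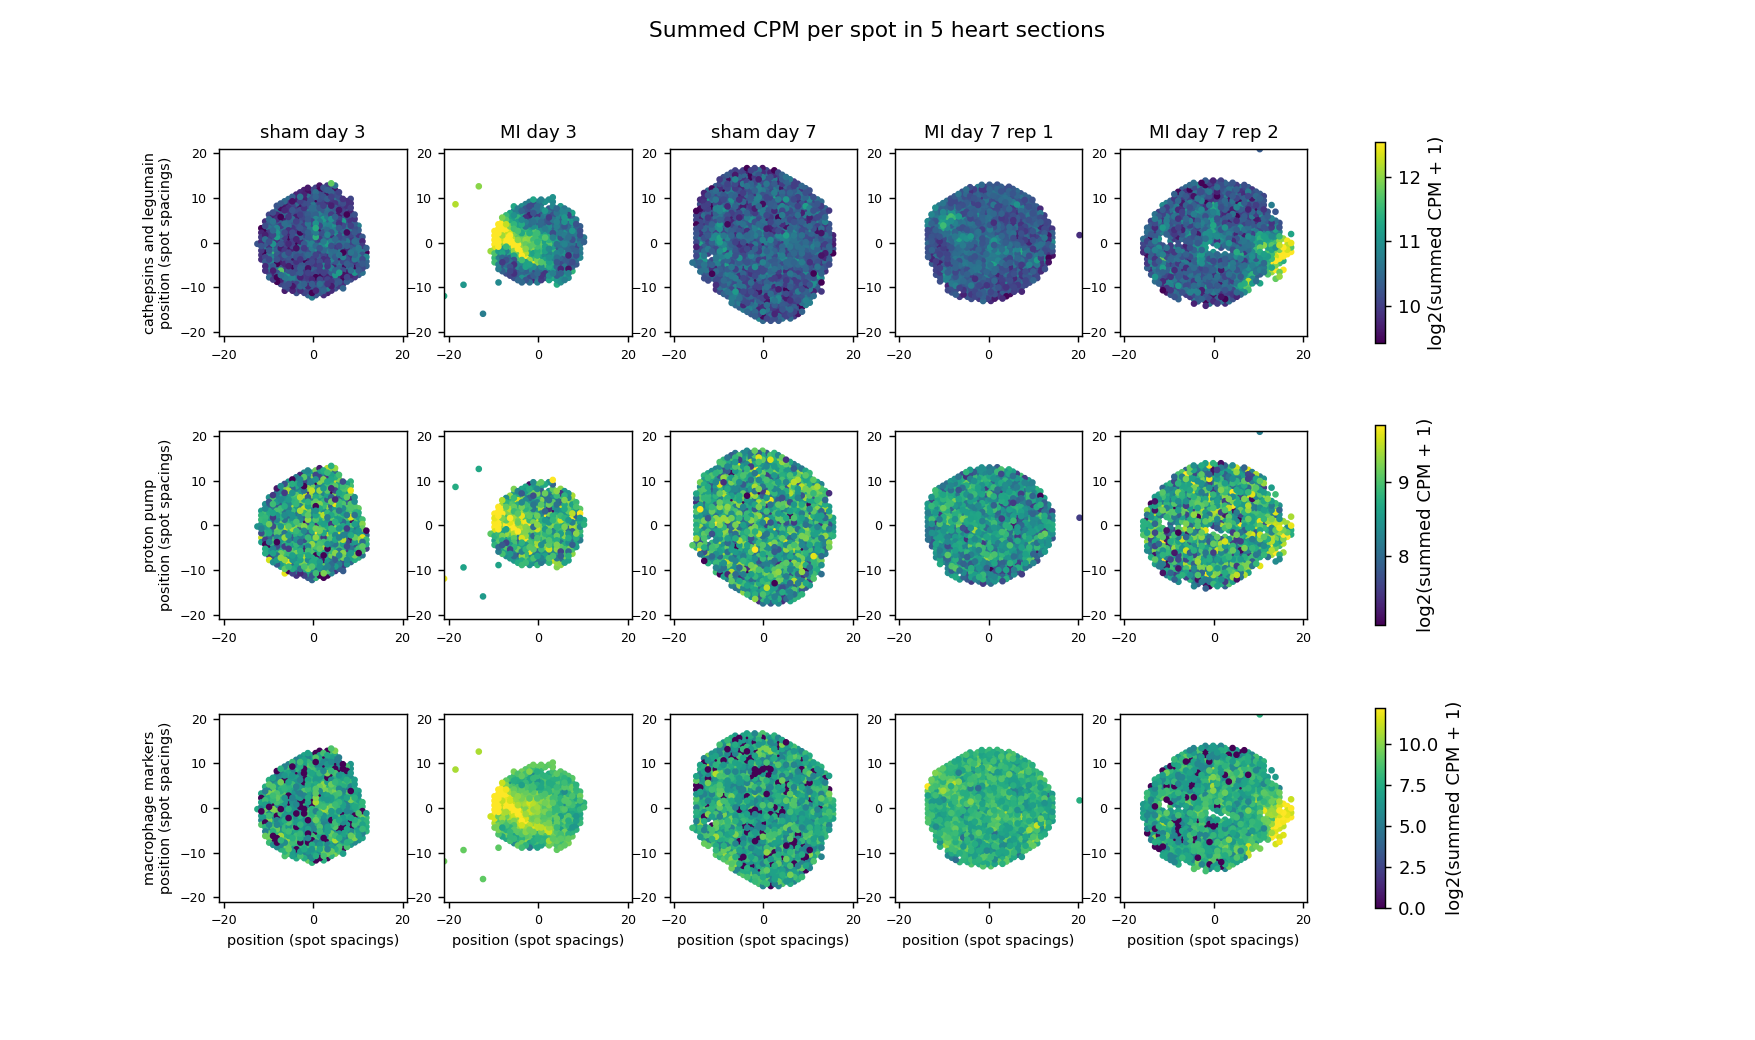
Spots of the 5 sections at their position in units of spot spacing, coloured by log2(summed CPM + 1) of cathepsins and legumain (top), the proton pump (middle) and macrophage markers (bottom), with 1 colour scale per row; 5, 4 and 2 detached spots of the MI day 3 and the first and second MI day 7 sections lie outside the drawn area. High cathepsin spots form 1 patch on the left of the MI day 3 section and 1 on the right of the second MI day 7 section, and the macrophage markers are high in the same patches.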

How the data were processed

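According to the labels and methods, the authors aligned reads to mouse GRCm38 (mm10) with Space Ranger and handled the spots in Seurat; the Space Ranger version is not given in the sources used here. For sham day 3 the deposited values were raw UMI counts per gene and spot. For the other 4 sections they were counts corrected by the authors with sctransform, treated here as a score. This correction brings spots to about the median depth of a section, so it weakens differences in total RNA between spots and can raise shallow spots. The deposited metadata gave raw UMI counts, 11 label-transfer scores per spot as a fraction of 1, and spot positions in pixels.

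From these tables CPM were calculated per spot over the 13711 shared genes and averaged per section. limma 3.58.1 with a mean-variance trend was fitted to log2(mean CPM + 1) for genes of at least 1 CPM in at least 2 sections, since the corrected values allow no count model. One fit had day as a covariate (2 residual degrees of freedom); another had 4 group means (1 residual degree of freedom) for day 7 and for the difference between days. A class of spots needed at least 5 spots in a section. The code was tested on simulated data. Sections were grouped by their labels. The 33 genes and all lists were chosen with earlier results of these data known. Per-section values were given for genes whose groups did not overlap, genes called in a fit, and those with the 3 largest and 3 smallest differences across days; values of Lgmn, Man2b1 and Npc2 were added after they were seen. Alternatives covered scaling, low-value filter, pseudocount, pooling, SCTransform of the raw table and left-out sections; spots under 5000 raw UMIs and spots with a Macrophage score of 0 were added after seeing the data.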

Additional observations from a re-analysis of the deposited data

Results flagged for a closer look

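Cathepsin S (Ctss) was singled out because a direct test called the effect of MI different between the days. The difference between MI and sham was 2.76 larger at day 3 than at day 7 on the log2 scale (limma, adjusted p = 0.00167). The MI section at day 3 (155 CPM) was above both MI sections at day 7 (12.3 and 17.8 CPM), while the sham sections were at 9.97 and 6.50 CPM. Day 3 had 1 section per group, and the spread in the test came from the pair of MI sections at day 7. The spread between hearts at day 3 was therefore not measured. The call was lost under median-of-ratios scaling (adjusted p = 0.201) and with mitochondrial and haemoglobin genes left out (adjusted p = 0.279). In spots with a Macrophage score of 0 the size was 1.61. The part of macrophage content, which moved with Ctss, was not tested.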

How the results depend on the processing

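No paired analysis was made, because the labels give no pairing between sections. The median difference over the 33 genes kept its sign in every alternative of the 5 comparisons, and at day 3 all 33 genes stayed above 0. Settings changed the number of genes called. In the difference between days it was 1 as reported, 0 under median-of-ratios scaling and with mitochondrial and haemoglobin genes left out, and 2 with pseudocount 5, no filter, sums over spots or SCTransform on sham day 3. In CM1-dominant spots it was 1 as reported, 0 under the first 2 of these and with pseudocount 5, 2 with sums over spots or without shallow spots, and 3 in spots with a Macrophage score of 0. At day 7 it was 1 with sums over spots. In spots with a Macrophage score of 0 it was 1 across days and 1 at day 7, with 4 genes past a log2 difference of 1 and a median of 0.56 at day 3, and Atp6v0c turned to -0.10 across days. Over all genes the count called higher ranged from 0 to 26 across days, 0 to 62 at day 7, 0 to 135 between days and 11 to 79 in CM1-dominant spots, beside 1, 24, 47 and 24 as reported, and from 207 to 496 past a difference of 1 at day 3 beside 454. With a section left out it reached 319 across days and 185 in CM1-dominant spots, both without the sham section at day 7.

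With each section left out in turn, 0 to 10 genes were called across days and the median ranged from 0.17 to 0.87. The 10 calls came without the sham section at day 7, which leaves the contrast of day 3, and a median of 0.17 without either day 3 section, which leaves that of day 7. The ranges were -0.014 to 0.95 for Lgmn, -6.06e-05 to 0.64 for Asah1, -0.039 to 0.65 for Lamp1, -0.14 to 0.23 for Atp6v0c, -0.038 to 0.62 for Atp6v0d1 and -0.17 to 0.46 for Atp6v1a, each negative without a day 3 section, and for Atp6v0c also without the second MI section at day 7. In CM1-dominant spots 0 to 4 genes were called and the median ranged from 0.031 to 0.55. Without the first MI section at day 7 its call was lost, and without the second it rose to 4. Leaving out an MI section at day 7 left no test for day 7 or the difference between days. The median at day 7 was then 0.26 or 0.04. The cause of these changes was not tested. The median over Macrophage-dominant spots ranged from 0.40 to 1.06 beside 0.57, and that over FB-dominant spots from 0.46 to 0.68 beside 0.55. With Pearson's coefficient the genes correlated with the Macrophage score above 0 in all sections fell from 21 to 13, and the median over membrane proteins from 0.19 to 0.06. Depth limits low genes such as Ctss, whose level in sham at day 3 rested on 106 UMIs.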

Other observations

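The sum of each lysosomal role had a smaller ratio of MI to sham than the summed macrophage markers at both days. At day 3 the ratio was 6.65 for the 17 summed macrophage markers, 15.6 for Ctss, 2.21 for the summed cathepsins and 1.27 for the summed proton pump, with 1 section per group. At day 7 the ratio of the mean MI level to sham was 1.75 for the markers, 2.31 for Ctss, 1.13 for the cathepsins and 0.94 for the proton pump. Single markers could also have a larger ratio than their sum, such as Lyz2 with 41.1 CPM in sham and 663 CPM in MI at day 3.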
